A study of Mus musculus with 10 samples.

Results

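The 8 genes of neurotrophic signalling followed here, 4 ligands and 4 receptors, were measured in mouse hearts carrying a Control or a Prdm16 knockout label. The ligands were neurturin (Nrtn), glial cell line-derived neurotrophic factor (Gdnf), brain-derived neurotrophic factor (Bdnf) and neurotrophin-3 (Ntf3). The receptors were Ret, Gfra1, Gfra2 and the p75 neurotrophin receptor (Ngfr). The rows were found by gene symbol, and all 8 were present among the 46786 genes of the 3-month table and the 46977 genes of the 12-month table. The set was chosen by the 3-month FPKM values of Nrtn, which differed between the labels, with related ligands and receptors added by symbol, so the 3-month values of the 8 genes are a description, and nothing is read from a 3-month call among them. The rule used no 12-month value, although 12-month results were known when the members were listed. A mean of at least 1 FPKM (fragment counts the authors scaled by transcript length and library size) over the libraries of an age was required for testing. Nrtn, Gfra1, Bdnf and Ntf3 met it at 3 months, 4 of 8, and Ret joined them at 12 months, 5 of 8.

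Glial cell line-derived neurotrophic factor and neurturin are secreted proteins that bind a lipid-anchored co-receptor, preferentially the product of Gfra1 for the former and of Gfra2 for the latter, and the complex then activates the receptor tyrosine kinase RET. Brain-derived neurotrophic factor and neurotrophin-3 signal mainly through TRK receptor tyrosine kinases and also bind p75, which has no kinase of its own. In the heart, neurturin is known for supporting the parasympathetic neurons of the cardiac ganglia, whereas neurotrophin-3 is known for a role in sympathetic innervation.

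RNA was extracted from dissected hearts. At 3 months there were 3 Control and 3 Prdm16 knockout libraries, made as strand-specific poly(A) libraries, and at 12 months 2 Control and 2 Prdm16 knockout libraries, prepared at a sequencing institute. The labels give no strain, sex, allele, Cre driver or pooling, and they do not state whether the libraries of 1 group are separate animals, so a p-value covers the spread between libraries only. Genotype and any factor handled together with it, and in whole-heart RNA the number of cells of a type and the RNA per cell, cannot be told apart.

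Prdm16, the gene named in the labels, was measured at 1.44, 2.23 and 1.61 FPKM in the 3-month Control libraries and at 1.43, 0.760 and 2.03 FPKM in the knockout-labelled ones. These groups overlapped, so each direction at 3 months refers to the label. At 12 months Prdm16 was at 6.31 and 5.05 FPKM against 4.02 and 3.58 FPKM, without overlap and with limma adjusted p = 0.340. Ventricular cardiomyocyte markers summed to 20927 to 26156 FPKM in the 3-month controls and 27714 to 30536 FPKM in the knockout-labelled libraries. At 12 months they summed to 54534 to 54541 against 56530 to 62073 FPKM. Of the 10 tested genes of that list, 6 had a difference above 0 at 3 months and 5 at 12 months. Summed FPKM ranged from 516272 to 718787 at 3 months and from 890181 to 1171104 at 12 months. Knockout replicate 2 at 3 months stood apart, with a robust SD of the log2 ratios to the other libraries of 0.284 to 0.505, against 0.145 between knockout replicates 1 and 3. The 12-month knockout replicates differed from each other by 0.416 and the 12-month controls by 0.113. At 12 months the controls had Xist at 33.1 and 31.0 FPKM, the knockout libraries had it at 0.0911 FPKM or less, and the Y-linked Ddx3y was at most 0.0352 FPKM in the former and at least 20.7 FPKM in the latter, so the label and sex-linked expression cannot be told apart there. At 3 months all 6 libraries had Ddx3y at 16.5 FPKM or more and Xist at 0.490 FPKM or less.

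Nrtn lies on the minus strand of chromosome 17 at 56751325-56757530 (GRCm38, GENCODE M21) and has 3 exons. Exon 1 holds untranslated sequence, and the coding sequence runs from exon 2 into exon 3. No annotated gene overlaps it. Its promoter is shown because Nrtn carries the main difference of the set, and it is the sequence of the 250 bases before the RefSeq start, chr17:56757549-56757798, minus strand, GRCm38.p6. Letters in capitals mark matches, on either strand, to the motifs searched.
Nrtn: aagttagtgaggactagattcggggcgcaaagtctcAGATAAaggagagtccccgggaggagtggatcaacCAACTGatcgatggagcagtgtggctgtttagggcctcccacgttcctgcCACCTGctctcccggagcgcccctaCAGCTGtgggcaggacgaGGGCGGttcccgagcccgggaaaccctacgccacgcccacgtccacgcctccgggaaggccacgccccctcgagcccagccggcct
The window had a GC content of 64.8%, against a median of 52.4% over 32851 promoter windows of this length. It held 1 GC box (GGGCGG), a match present in 32.7% of those windows, 3 E-boxes (CANNTG, present in 66.2%) and 1 GATA motif (AGATAA, present in 9.99%). No match was found to the TATA box TATAAA (12.4% of windows), the CRE TGACGTCA (1.55%), the AP-1 motif TGACTCA (4.46%) or the CCAAT box CCAAT (33.8%). The searched motifs did not overlap one another in this window. Promoter windows were found for 6 of the 8 genes.

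The other members lie on other chromosomes (GRCm38, GENCODE M21). Gdnf is on chromosome 15 at 7810846-7837575, Bdnf on chromosome 2 at 109674700-109727007 and Gfra2 on chromosome 14 at 70890120-70979838, all on the plus strand. Ntf3 (126101412-126166910) and Ret (118151745-118197718) are both on the minus strand of chromosome 6. Gfra1 is on chromosome 19 at 58235604-58455909 and Ngfr on chromosome 11 at 95568818-95587735, both on the minus strand.

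Nrtn was the most abundant of the 8 genes in every library. At 3 months it was at 34.0, 31.3 and 36.9 FPKM in the Control libraries and at 87.7, 220.1 and 103 FPKM in the knockout-labelled ones. The controls lay close together, every knockout-labelled library lay above all of them, and knockout replicate 2 was far above the others. The means were 34.1 ± 2.78 and 137 ± 72.5 FPKM (SD, n = 3 each), a ratio of 4.01, and the difference was 1.85 on the log2(FPKM + 1) scale with a standard error of 0.30. Without knockout replicate 2 the difference was 1.45. Nrtn was the 1 member of the 4 tested that passed the genome-wide threshold at 3 months (limma with Benjamini-Hochberg adjustment over 12200 genes, adjusted p under 0.05), where 0.746% of all tested genes passed in either direction and 0.623% were higher. Groups of all tested genes lay apart with the knockout label higher for 20.1% and lower for 4.60%. Nothing is read from these counts, since this contrast chose the gene. The call was absent when any 1 of the 3 control libraries was left out.

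At 12 months Nrtn was at 9.03 and 9.68 FPKM in the Control libraries and at 17.1 and 13.4 FPKM in the knockout libraries. Both knockout libraries lay above both controls, as they did for 27.3% of all tested genes at this age, while 23.0% lay below. The means were 9.35 ± 0.459 and 15.3 ± 2.65 FPKM (SD, n = 2 each), a ratio of 1.63. The log2 difference was 0.64 with a standard error of 0.16, and it did not pass the threshold (limma, adjusted p = 0.259, where 0.395% of all tested genes passed). By exact permutation (two-sided) p was 0.333, the lowest that 4 libraries can reach. The difference was 0.34 after rescaling to TPM, which shifted the all-gene median difference from 0.01 to -0.27. For Nrtn the difference was 0.48 without knockout replicate 1 and 0.81 without knockout replicate 2. Each of these fits had 1 knockout library, assumed to vary like the others, so no call is read from them. Over the alternatives that kept all 4 libraries the adjusted p (limma) ran from 0.242 to 0.378. About 217 and 245 reads lay behind the control values and about 367 and 235 behind the knockout values. The 3-month and 12-month levels come from separately normalised tables, and the difference between ages was not tested.

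**Figure D1:**
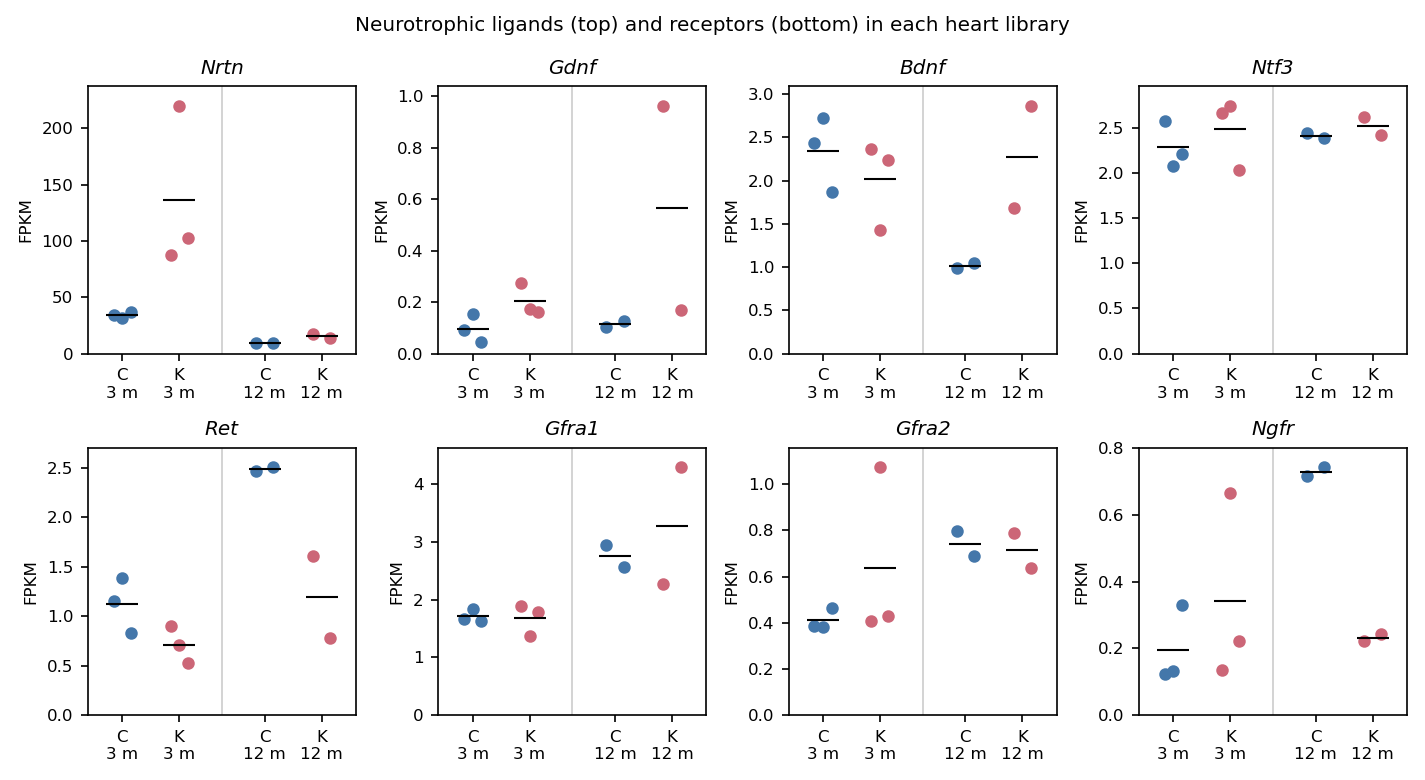
FPKM of each of the 8 genes in every library, 1 panel per gene, with control (C, blue) and knockout (K, red) libraries at 3 and 12 months as points and a line at the group mean. Nrtn at 3 months is the panel in which the knockout-labelled libraries, at 87.7 to 220.1 FPKM, lie far above the controls, at 31.3 to 36.9 FPKM; most other panels show overlapping groups at one or both ages.

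Markers of several cell types differed between the labels beside Nrtn. At 3 months the summed FPKM of 12 atrial cardiomyocyte markers was 727 to 6263 in the controls and 12366 to 28801 in the knockout-labelled libraries. Of the 11 tested genes 10 had a difference above 0, as did 7936 of all 12200 tested genes. Apart higher were 3, 1 of them called, where 20.1% of all tested genes lay apart higher. Nppa, which encodes atrial natriuretic peptide, made up most of that sum, at 749, 561 and 3825 FPKM in the controls and 11824, 19851 and 16225 FPKM in the knockout-labelled libraries. At 12 months the atrial list was split. Its sum, again mostly Nppa, was 6246 to 6407 in the controls and 13741 to 16006 in the knockouts. Of the 11 tested genes, however, 5 were apart higher and 5 apart lower, with a median difference of -0.03 and none called. Over all tested genes 27.3% lay apart higher and 23.0% lower at that age. Stard10, an atrial-enriched gene, was at 23.1, 24.2 and 82.3 FPKM in the 3-month controls and at 94.5, 298 and 162 FPKM in the knockout-labelled libraries. Over the 10 libraries, centred within each age, Pearson's r with Nrtn was 0.89 for Stard10 and 0.89 for Nppa. The part of atrial cells in the Nrtn values was not tested.

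Other lists also differed. At 3 months the sum of 8 red blood cell genes was 820 to 1114 FPKM in the controls and 2083 to 3114 FPKM in the knockout-labelled libraries, with 5 of 6 tested genes called higher. Lymphocyte and neutrophil genes were apart higher for 6 of 8 tested genes, 3 of them called, with overlapping sums of 104 to 234 and 180 to 367 FPKM. Skeletal muscle genes summed to 23.6 to 32.6 against 41.4 to 59.5 FPKM. Airway, lung, thymus and thyroid genes were lower, at 15.99 to 46.4 against 1.63 to 3.31 FPKM, with 2 of 5 tested genes called lower. At 12 months the red blood cell sum was 10664 to 10798 FPKM in the controls and 1959 to 2160 FPKM in the knockouts, with 6 of 6 tested genes called lower. Fibroblast markers were apart lower for 7 of 8, adipocyte markers for 5 of 7, 2 of them called, and epicardial and mesothelial markers for 5 of 6. The adipocyte sum went the other way, at 658 to 665 FPKM in the controls and 733 to 1407 FPKM in the knockouts, with 1 tested gene apart higher. Groups of all tested genes lay apart higher for 20.1% and lower for 4.60% at 3 months, and for 27.3% and 23.0% at 12 months. The part of these cell types in the Nrtn values was not tested.

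Neural markers were scarce. Of 11 parasympathetic and cholinergic markers, 10 had a mean under 1 FPKM at each age. Chat, the enzyme that makes acetylcholine, was listed at 0 in 5 of the 6 libraries at 3 months. The parasympathetic sum was 1.19 to 1.70 FPKM in the 3-month controls and 2.2 to 5.72 FPKM in the knockout-labelled libraries. Ache made up most of it, at 0.926, 1.36 and 1.25 FPKM against 2.03, 4.02 and 2.45 FPKM. Every other marker of that list overlapped between the groups at 3 months. At 12 months the sum was 2.62 to 3.20 FPKM in the controls and 3.34 to 6.34 FPKM in the knockouts. Ache, the 1 tested gene of the list, was apart higher by 0.80 there, as were 27.3% of all tested genes, and was not called. The summed markers of neurons in general at 3 months were at 10.2, 31.7 and 10.03 FPKM in knockout replicates 1 to 3, against 9.33 to 11.2 FPKM in the controls. Only replicate 2, the library with the highest Nrtn, thus stood above. Schwann cell and satellite glia markers summed to 35.3 to 42.2 FPKM in the controls and 43.5 to 63.9 FPKM in the knockout-labelled libraries. Pmp22 was the largest part, at 20.8, 18.8 and 22.4 FPKM against 25.7, 31.7 and 23.6 FPKM. Of the 9 tested genes of that list, 3 were apart higher and 1, Mal, apart lower, and the others overlapped. The sum of 8 sympathetic markers overlapped at 3 months, at 15.3 to 20.4 FPKM in the controls and 18.0 to 39.7 FPKM in the knockout-labelled libraries. Of the 5 tested genes of that list 1, Ddc, was apart higher, and the others overlapped. Ddc, which encodes the aromatic amino acid decarboxylase of catecholamine synthesis, was at 2.65, 3.71 and 4.17 FPKM against 5.81, 14.3 and 8.35 FPKM at 3 months. The order of the knockout-labelled libraries was the same for Ddc and Nrtn. At 12 months Ddc overlapped, at 6.87 and 5.90 FPKM against 5.60 and 6.26 FPKM. Of the 4 sympathetic markers tested at that age, 1 had a difference above 0 and 3 below it. The part of neural cells in the Nrtn result was not tested.

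**Figure D2:**
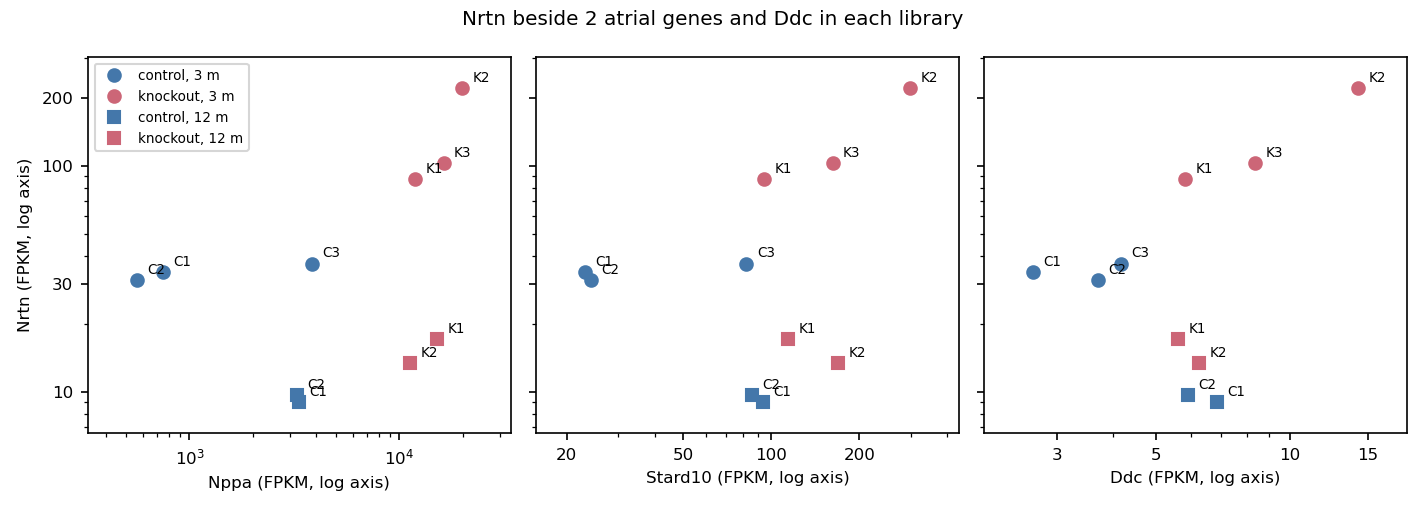
Nrtn against Nppa, Stard10 and Ddc in each of the 10 libraries, all in FPKM on log axes; circles are 3-month and squares 12-month libraries, blue is control and red is knockout. At 3 months Stard10 is at 23.1 to 82.3 FPKM in the controls and at 94.5 to 298 FPKM in the knockout-labelled libraries. The genes plotted against Nrtn lay apart at 3 months, whereas most tested markers of their lists overlapped. The 2 ages come from separately normalised tables, so levels are read within an age only.

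Transcript length and GC content are given beside the 3-month difference. Its 1023 bases were shorter than those of most tested genes, at percentile 12.3, and its GC content of 72.8% was at percentile 99.98. The median log2 difference was 0.09 over all genes with a transcript sequence, 0.30 over the shortest 2434, 0.16 over the 2432 of highest GC and 0.36 over the 641 genes in both. The difference of 1.85 for Nrtn was exceeded by 2 of those 641 genes. Nothing is read from that rank, since this contrast chose the gene. At 12 months the corresponding medians were 0.01, 0.09, -0.02 and 0.06. The part of length and GC content in the Nrtn result was not tested.

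The protein-coding genes next to Nrtn were Ndufa11, a subunit gene of respiratory complex I, 29183 bases away, and Dus3l, a tRNA-modifying enzyme gene, 7226 bases away, both on the plus strand. A pseudogene beside Nrtn was not analysed here. Ndufa11 was at 70.6, 59.1 and 58.9 FPKM in the 3-month controls and at 85.8, 106.6 and 83.7 FPKM in the knockout-labelled libraries. These groups did not overlap, and the log2 difference of 0.54 did not pass (limma adjusted p = 0.135). At 12 months Ndufa11 differed by 0.23 and again did not pass (limma adjusted p = 0.525). Dus3l overlapped at both ages, with differences of 0.10 and -0.13. Prr22, beyond Dus3l, was below 1 FPKM throughout.

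Among the other ligands, none passed the threshold at either age. Gdnf, the RET ligand that prefers the Gfra1 product, was below the 1 FPKM mean at both ages and was not in the main test. It was at 0.0921, 0.153 and 0.0442 FPKM in the 3-month controls and at 0.276, 0.175 and 0.160 FPKM in the knockout-labelled libraries. The groups touched closely without overlapping, the highest control lying just under the lowest knockout-labelled library. At 12 months Gdnf was at 0.102 and 0.126 FPKM against 0.963 and 0.168 FPKM. Knockout replicate 1 accounted for most of that gap, and with a filter of 0.1 FPKM the difference of 0.44 had limma adjusted p = 0.570.

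Bdnf, a neurotrophin that binds TrkB and p75, was at 2.44, 2.72 and 1.87 FPKM in the 3-month controls and at 2.37, 1.43 and 2.24 FPKM in the knockout-labelled libraries. The groups overlapped, and knockout replicate 2, the highest for Nrtn, was the lowest for Bdnf. At 12 months Bdnf was at 0.989 and 1.04 FPKM against 1.68 and 2.87 FPKM, with both knockouts above both controls. The difference of 0.68 with a standard error of 0.24 did not pass (limma adjusted p = 0.355). It was 0.94 without knockout replicate 1 and 0.41 without knockout replicate 2, each fit with 1 knockout library left. Over the alternatives that kept every library the adjusted p (limma) ran from 0.241 to 0.461. With a pseudocount of 0.1 FPKM the difference was 1.04.

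Ntf3, which encodes neurotrophin-3, the main ligand of TrkC, was the steadiest ligand. It was at 2.58, 2.08 and 2.21 FPKM in the 3-month controls and at 2.68, 2.75 and 2.04 FPKM in the knockout-labelled libraries. At 12 months it was at 2.45 and 2.39 FPKM against 2.63 and 2.43 FPKM. The groups overlapped at both ages, and the log2 differences were 0.08 and 0.04 (limma adjusted p = 0.8899 at 12 months). The 12-month difference was -0.19 after rescaling to TPM.

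Ret, the shared signalling receptor of the glial cell line-derived neurotrophic factor family, was at 1.15, 1.38 and 0.827 FPKM in the 3-month controls and at 0.900, 0.711 and 0.526 FPKM in the knockout-labelled libraries. The groups overlapped by 1 library, control replicate 3, and the mean over the 6 libraries was below the filter. At 12 months Ret was at 2.46 and 2.504 FPKM against 1.61 and 0.774 FPKM. Both knockouts lay below both controls, whose values were close together. The difference of -0.70 with a standard error of 0.24 did not pass (limma adjusted p = 0.355). It was -0.97 without knockout replicate 1 and -0.42 without knockout replicate 2, each fit with 1 knockout library left. Over the alternatives that kept every library the adjusted p (limma) ran from 0.175 to 0.457. With a pseudocount of 0.1 FPKM the difference was -1.08.

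Gfra1, the co-receptor that presents glial cell line-derived neurotrophic factor to RET, was at 1.67, 1.84 and 1.62 FPKM in the 3-month controls and at 1.89, 1.37 and 1.79 FPKM in the knockout-labelled libraries. The groups overlapped and the difference was -0.02. At 12 months Gfra1 was at 2.95 and 2.57 FPKM against 2.27 and 4.30 FPKM, with 1 knockout below and 1 above both controls. The difference of 0.15 did not pass (limma adjusted p = 0.821), and its sign turned without knockout replicate 2, to -0.20, and after rescaling to TPM, to -0.10.

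Gfra2, the co-receptor preferred by neurturin, was below the filter at both ages. It was at 0.387, 0.381 and 0.465 FPKM in the 3-month controls and at 0.405, 1.07 and 0.428 FPKM in the knockout-labelled libraries. Knockout replicate 2 was the highest library for Gfra2 as it was for Nrtn, and the other knockout-labelled libraries lay among the controls. At 12 months Gfra2 was at 0.796 and 0.690 FPKM against 0.791 and 0.637 FPKM, with overlap and a difference of -0.02.

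Ngfr, the p75 receptor, was also below the filter at both ages. It was at 0.124, 0.133 and 0.330 FPKM in the 3-month controls and at 0.134, 0.665 and 0.223 FPKM in the knockout-labelled libraries, again with its highest value in knockout replicate 2 and with overlapping groups. At 12 months Ngfr was at 0.717 and 0.743 FPKM against 0.222 and 0.242 FPKM. Both pairs were tight and the knockouts lay below, on about 69 and 75 reads against 19 and 17. With a filter of 0.1 FPKM the difference of -0.49 did not pass (limma adjusted p = 0.256).

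**Figure D3:**
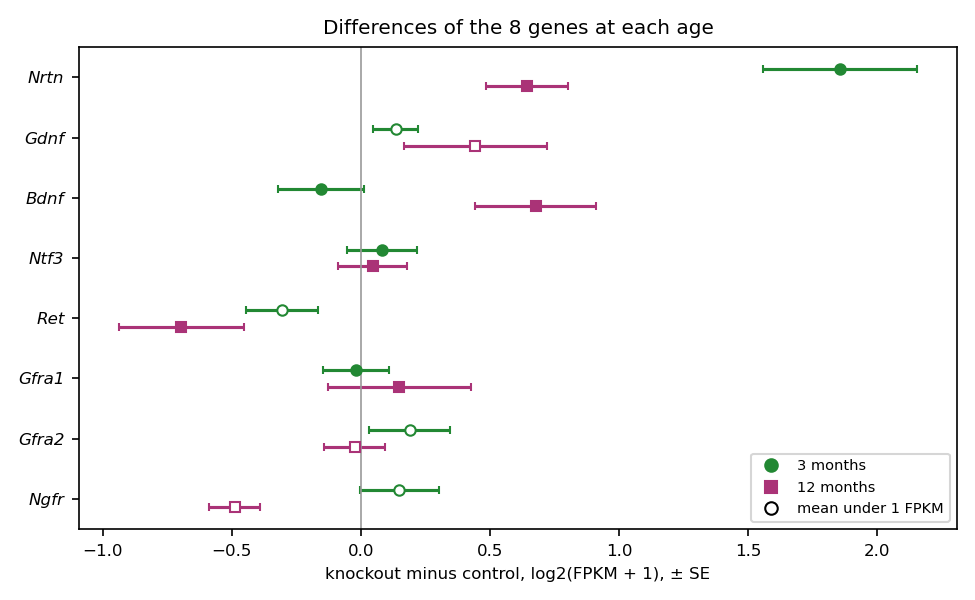
Difference of each gene on the log2(FPKM + 1) scale, knockout minus control, with its standard error, at 3 (circles) and at 12 months (squares); open symbols are genes with a mean under 1 FPKM, taken from the fit with a filter of 0.1 FPKM. At 3 months Nrtn stands at 1.85; at 12 months Nrtn (0.64) and Bdnf (0.68) lie above 0 and Ret (-0.70) below it, and none of these passed the threshold.

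Counted over the genes tested, 0 of 5 members passed at 12 months (limma), 3 of 5 had an unadjusted p under 0.05 (all tested genes: 13.6%), and the groups lay apart upward for Nrtn and Bdnf and downward for Ret. Over all tested genes the groups lay apart upward for 27.3% and downward for 23.0%. Without knockout replicate 1 the differences were 0.48 for Nrtn, 0.94 for Bdnf and -0.97 for Ret. Without knockout replicate 2 they were 0.81, 0.41 and -0.42. Each of these fits had 1 knockout library, so no call is read from them.

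Levels per transcript length had a stable first place, while the genes directly after it were not the same in every group. Nrtn was first in all 4 groups and its range did not overlap that of the gene after it. In the 3-month controls the mean levels after Nrtn were Bdnf at 2.34, Ntf3 at 2.29, Gfra1 at 1.71, Ret at 1.12, Gfra2 at 0.411, Ngfr at 0.196 and Gdnf at 0.0965 FPKM. In that order Bdnf and Ntf3, and Ngfr and Gdnf, overlapped in range. In the 3-month knockout-labelled libraries the order was Ntf3, Bdnf, Gfra1, Ret, Gfra2, Ngfr and Gdnf, and among these neighbours only Gfra1 and Ret did not overlap. In the 12-month controls Gfra1 (2.76), Ret (2.48) and Ntf3 (2.42) followed Nrtn, ahead of Bdnf (1.02), Gfra2 (0.743), Ngfr (0.730) and Gdnf (0.114 FPKM), and Gfra2 and Ngfr overlapped. In the 12-month knockouts Gfra1 (3.28), Ntf3 (2.53) and Bdnf (2.28) came before Ret (1.19), Gfra2 (0.714), Gdnf (0.565) and Ngfr (0.232 FPKM), and Bdnf and Ret did not overlap. The p75 receptor was thus last in that group alone.

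Other genes of the pathway were taken from 8 lists with 110 genes in the tables. At 3 months 81 of the 110 were tested, and 0 passed in either direction (limma), against 0.746% of all tested genes. Of the 81, 12 had an unadjusted p under 0.05, which is 14.8% against 18.2% of all tested genes. Their groups lay apart upward for 9 and downward for 7 of the 81, where 20.1% and 4.60% of all tested genes did. Their median difference was 0.04 beside 0.09 over all genes. At 12 months 89 were tested and 0 passed (limma), against 0.395% of all tested genes, with 15 at an unadjusted p under 0.05, or 16.9% against 13.6%. Their groups lay apart upward for 25 and downward for 20 of the 89, where 27.3% and 23.0% of all tested genes did. Their median difference was -0.03 beside 0.01. Fits that left out a 12-month library had 1 library in a group, and no calls are read from them.

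The remaining ligands and co-receptors of the RET family were few. Pspn, which encodes persephin, and Gfral, the co-receptor of GDF15, were listed at 0 in every 3-month library, and Artn, which encodes artemin, did not exceed 0.0639 FPKM there. Gfra4, the persephin co-receptor, was at 5.48 to 9.92 FPKM in the 3-month controls and 6.42 to 7.43 FPKM in the knockout-labelled libraries, with a difference of -0.08 at each age. Gfra3, the artemin co-receptor, differed by 0.33 and 0.17. Gdf15, a stress-responsive ligand, was at 0.173 and 0.302 FPKM in the 12-month controls and at 0.582 and 4.69 FPKM in the knockouts, a difference of 1.28 carried mostly by replicate 2 (limma adjusted p = 0.474). None of the 3 tested genes of this list passed at either age.

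Among neurotrophins and their receptors outside the 8, 0 of 4 tested genes passed at 3 months and 0 of 5 at 12 months. Ntrk3, which encodes TrkC, was at 2.44 and 1.27 FPKM at 12 months against 0.239 and 1.39 FPKM, and its groups overlapped. Ntrk2, which encodes TrkB, did not exceed 0.324 FPKM in any library. Sort1, the sortilin co-receptor of p75, differed by 0.68 at 3 months with overlapping groups and by -0.29 at 12 months.

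The alternative receptors and cofactors of the family, the proteases that process growth factors, the adaptors and kinases used by RET and TRK, and the feedback and ETS targets of MAP kinase signalling gave no call at either age. At 3 months the lowest unadjusted p in each of these lists belonged to Sulf2 (0.32), Pcsk6 (-0.37), Frs2 (-0.33) and Egr1 (0.32). At 12 months the lists of alternative receptors, adaptors and MAP kinase targets were led in the same way by Itgav (0.60), Irs1 (-1.08) and Ier3 (1.14).

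Partners of p75 included Maged1, an adaptor that binds its intracellular part, at 27.0, 34.4 and 33.5 FPKM in the 3-month controls and 43.4, 73.5 and 47.0 FPKM in the knockout-labelled libraries. The groups lay apart and the difference of 0.74 did not pass (limma adjusted p = 0.142). At 12 months Maged1 overlapped, with a difference of 0.04. Of the 14 tested genes of this list 0 passed at either age. Rtn4r, the Nogo receptor, differed by -0.63 at 3 months.

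In the list of other neurotrophic and guidance factors, 0 of 18 genes passed at 3 months and 0 of 20 at 12 months. Cntfr, the receptor subunit that binds ciliary neurotrophic factor, was at 0.552, 1.37 and 2.48 FPKM in the 3-month controls and at 4.16, 5.33 and 4.63 FPKM in the knockout-labelled libraries. The groups lay apart, and the difference of 1.28 did not pass (limma adjusted p = 0.0702). It passed after rescaling to TPM, at 1.36. At 12 months Cntfr was again higher in both knockouts, at 7.74 and 3.57 FPKM against 1.43 and 1.59 FPKM (limma adjusted p = 0.272). Nrp1, a co-receptor for semaphorins and vascular endothelial growth factor, was at 15.7 to 18.6 FPKM in the 3-month controls and 24.6 to 24.9 FPKM in the knockout-labelled libraries (limma adjusted p = 0.0859). Igf2, an insulin-like growth factor, was at 52.3 and 55.8 FPKM in the 12-month controls and at 13.0 and 17.0 FPKM in the knockouts (limma adjusted p = 0.0692), and it passed after rescaling to TPM, at -2.10.

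**Figure D4:**
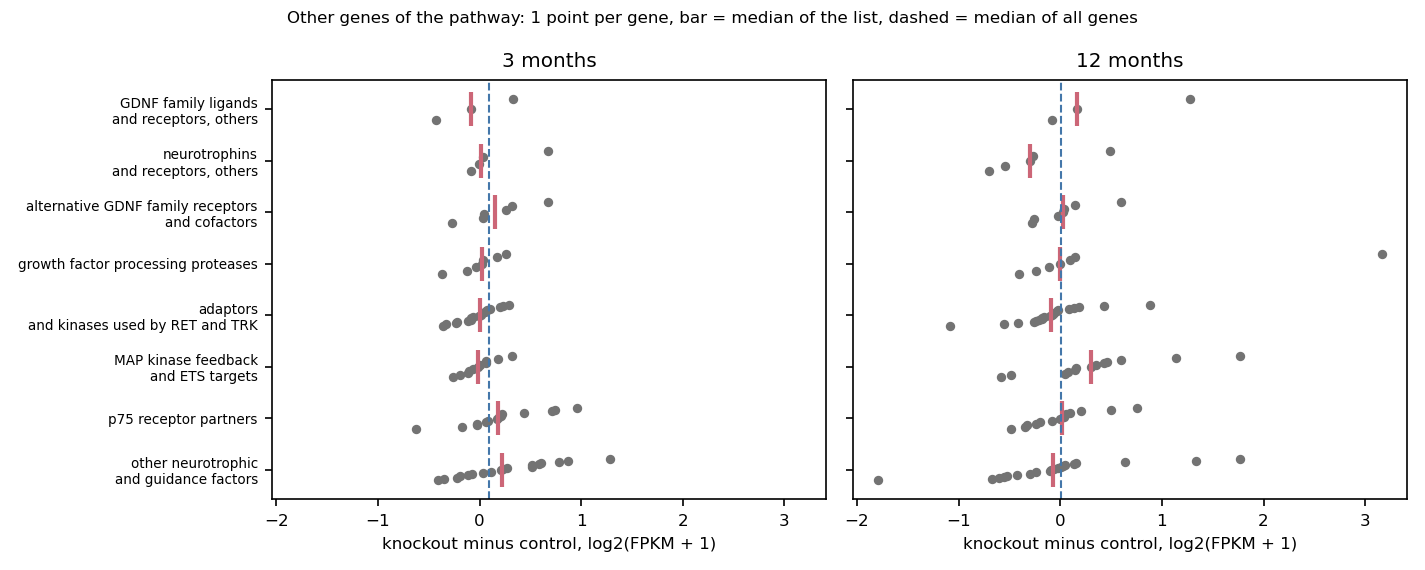
Log2 differences, knockout minus control, of the tested genes of each of the 8 pathway lists at 3 and 12 months, 1 point per gene, with a bar at the median of the list and a dashed line at the median of all genes. No gene passed the threshold at either age; the highest value at 3 months is Cntfr (1.28).

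Gene by gene likeness to Nrtn was measured as Pearson's r of log2(FPKM + 1) over the 10 libraries, each centred on the mean of its age, among 11579 genes. These values share the libraries and the 3-month contrast, and they are a description. The highest were Jam3 (r = 0.987), an adhesion molecule of cell junctions, Cxx1b (0.976), which has near-identical copies so that its level is uncertain, RP24-179I4.3 (0.975), Atp6ap1l (0.971) and Opn4 (0.971), the melanopsin gene. Jam3 was at 6.36 to 7.08 FPKM in the 3-month controls and at 9.36, 14.5 and 10.4 FPKM in the knockout-labelled libraries, and at 10.4 and 10.4 against 14.2 and 11.3 FPKM at 12 months. Each knockout library kept its rank relative to Nrtn within its age. Over the same libraries the other members were less like Nrtn. The values of r were 0.73 for Gfra2, 0.47 for Ntf3, 0.38 for Gdnf, 0.30 for Ngfr, -0.21 for Gfra1, -0.21 for Bdnf and -0.52 for Ret. The 3 markers in the plot of Nrtn against other genes gave 0.89 for Nppa, 0.89 for Stard10 and 0.90 for Ddc.

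**Figure D5:**
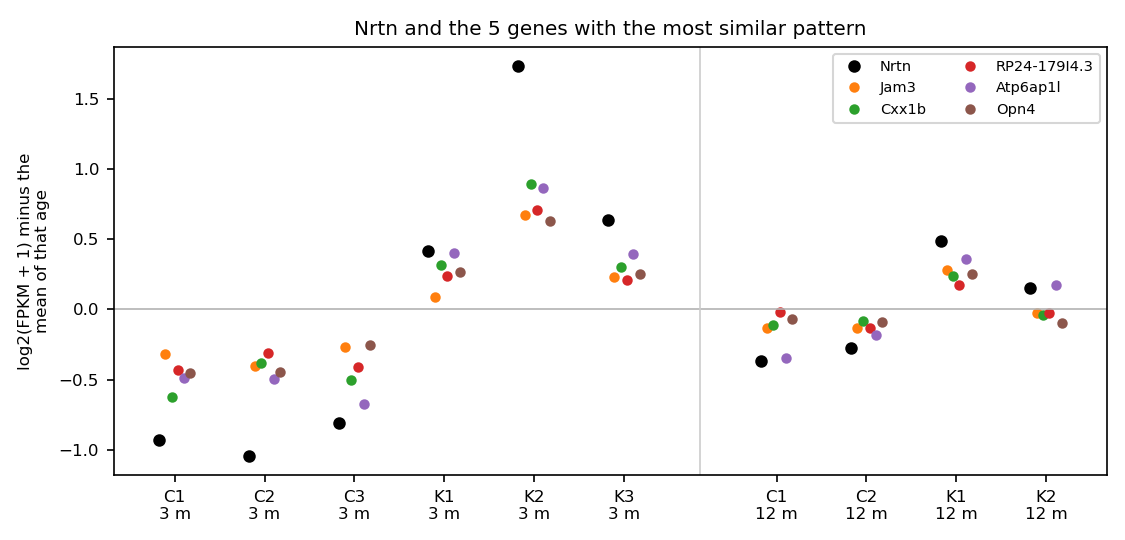
Log2(FPKM + 1) of Nrtn and of the 5 genes most like it in each of the 10 libraries, centred on the mean of each age. Points of 1 colour are 1 gene, C is control and K is knockout. All 6 genes lie below 0 in the 3-month controls and are highest in knockout replicate 2 at 3 months; r with Nrtn is 0.971 to 0.987.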

How the data were processed

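RNA-seq levels were measured in 10 mouse heart libraries. The authors deposited 1 table of FPKM per age, with 1 column per library; at 12 months the table is titled as free of outliers, by a rule not given. Per the submitters' processing notes, the tools named are Cufflinks 2.1.1, STAR 2.5.1b, TopHat2 2.1.0 and FastQC, on mm10 or GRCm38. Which tool made which table, and whether libraries were rescaled, is not stated there. FPKM values depend on transcript length and on the composition of each library, so they were tested only within an age.

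Of the 46855 rows at 3 months, 69 repeated an identifier and were summed. Identifiers were matched to GENCODE M21 for 46297 and 46484 genes at 3 and 12 months. Testing required a mean of 1 FPKM or more and was done on log2(FPKM + 1) with limma 3.58.1 (R 4.3.3), knockout minus control, with a trend in the prior variance and Benjamini-Hochberg adjustment over all tested genes; an adjusted p under 0.05 was called. Fold changes on this scale understate changes of low genes. Single values were tested by exact permutation at 12 months. The procedure was tested on simulated data. The labels gave the groups and replicates.

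At 12 months low values stepped in whole reads (within 0.05) for 88.0% to 89.4% of values, which gave 21.6 to 31.1 M reads per library; at 3 months the share was 19.8% to 33.2%, so depth is unknown there. Read numbers are approximate.

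The members and gene lists were chosen with earlier results of these data known. Besides the 8 members, the genes named were drawn from the called genes and the 3 of lowest unadjusted p per list and age, the 5 genes most like Nrtn (symbols of predicted genes left out), the neighbours of Nrtn and Prdm16. Defining markers or list members at or near 0, other list genes at an age outside that rule, Stard10, Ddx3y, Xist, Ntrk2 and Artn were added after their values were seen. The alternatives were other filters, pseudocounts of 0.1 and 0.5 FPKM, median-of-ratios and TPM rescaling, no trend, robust moderation, a replicate block and leaving out each library. Promoter sequences came from RefSeq (GRCm38.p6). Some genes of the lists are not reported here. The pseudogene beside Nrtn and Tubb3 at 3 months were not analysed here.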

Additional observations from a re-analysis of the deposited data

Results flagged for a closer look

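For 2 pathway genes, and for the summed FPKM of 2 marker lists, the groups lay apart in opposite directions at the 2 ages. The difference between ages was not tested, and the 12-month groups also differ in sex-linked expression. Ngfrap1, which encodes a p75-associated protein, was higher with the knockout label at 3 months (0.96 on the log2 scale; 7.59, 5.22 and 7.91 against 9.18, 25.3 and 12.1 FPKM) and lower at 12 months (-0.48; 13.4 and 13.3 against 9.45 and 9.14 FPKM). Manf, a secreted factor of the endoplasmic reticulum, was higher at 3 months (0.59; 51.1, 50.6 and 45.0 against 72.2, 82.3 and 68.3 FPKM) and lower at 12 months (-0.52; 65.3 and 56.3 against 34.9 and 50.1 FPKM). None of these 4 differences passed the threshold. The red blood cell list had a median difference of 1.28 at 3 months and -2.35 at 12 months. The list of airway, lung, thymus and thyroid genes had a median of -1.89 at 3 months over 5 tested genes and 0.86 at 12 months, where 1 gene, Tg, was tested. Tg was apart higher at both ages (0.52 and 0.86), and 6 of the 9 genes were at 0 in all 12-month libraries, so the 2 medians rest on different genes.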

How the results depend on the processing

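The Nrtn call at 3 months, 1 among the members and a description because this contrast chose the gene, became 0 with no filter, with a filter of 0.1 FPKM, after median-of-ratios rescaling, with robust moderation and with the replicate block, and it ranged from 0 to 1 on leaving out 1 library. The direction of Nrtn was kept in all 16 alternatives at 3 months and all 14 at 12 months, where its difference ranged from 0.48 to 0.81 on leaving out 1 library. Calls among the members at 12 months ranged from 0 to 3 on leaving out 1 library, and calls among pathway genes from 0 to 41. Calls over all tested genes changed in the same fits too. Leaving out a 12-month library left 1 library in a group, so nothing is read from these counts. Pathway calls were 1 after rescaling to TPM at 3 months, 1 after rescaling to TPM at 12 months and 1 with the replicate block at 12 months, against 0. At 12 months Gfra1 turned to -0.10 and Ntf3 to -0.19 after rescaling to TPM, and Gfra1 ranged from -0.20 to 0.50 on leaving out 1 library. The cause of these changes was not tested. Libraries share only a replicate number: same-numbered deviations correlated at -0.46 to -0.12 at 3 months and at -0.0063 at 12 months. The replicate block gave 29 calls over all genes at 3 months, against 91, and 40 at 12 months, against 52. Depth is unknown at 3 months, and at 12 months Ngfr rested on about 17 to 75 reads per library.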

Other observations

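Glial and sympathetic markers gave values beyond those set beside Nrtn. Cdh19, a cadherin of Schwann cells and satellite glia, was at 1.13 and 1.20 FPKM in the 12-month controls and at 3.42 and 2.23 FPKM in the knockouts, without overlap (limma adjusted p = 0.272). At 3 months it overlapped, at 0.693 to 1.23 against 0.668 to 1.20 FPKM. Dbh, the enzyme that makes noradrenaline, was at 1.31, 1.20 and 1.72 FPKM in the 3-month controls and at 1.41, 3.66 and 1.68 FPKM in the knockout-labelled libraries, with replicate 2 the highest. At 12 months it was at 2.41 and 2.64 against 2.02 and 0.472 FPKM (limma adjusted p = 0.475), lowest in knockout replicate 2. Th, the first enzyme of catecholamine synthesis, did not exceed 0.0875 FPKM at 3 months.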
